A study of Mus musculus with 12 samples.

Results

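Ccn1, Ccn2 and Ankrd1 are transcripts that respond to mechanical load, and each is known as a target of the transcriptional coactivator YAP. They were chosen by measured values: their difference between Rpl3l knockout (KO) and wild-type (WT) mouse hearts was not the same in total RNA as in RNA pulled down with ribosomes. They are 3 of the 55401 genes listed for every library, and all 3 passed the count filter that left 6596 genes to be tested. The data come from adult hearts of WT and Rpl3l-/- mice, each measured as Input (total RNA of heart homogenates) and as IP (RNA captured with an anti-HA antibody), with 3 biological replicates in each of the 4 groups and 12 libraries in all. Rpl3l encodes a form of ribosomal protein L3 found in striated muscle. Hearts for the IP libraries were treated with cycloheximide, which stalls ribosomes, when they were excised, and IP RNA was purified on columns while Input RNA was taken with TRIzol. Fraction and RNA handling therefore cannot be told apart, and neither the cells that carry the tag nor a shared heart behind an Input and an IP library is stated in the labels. Poly(A) RNA of both fractions was sequenced as direct cDNA on a nanopore MinION, and each file gives the number of reads assigned to every gene.

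YAP and its relative TAZ (gene Wwtr1) enter the nucleus when the Hippo kinases are inactive or when a cell is stretched or spread, and there they bind TEAD factors on DNA. Ccn1 (formerly Cyr61) and Ccn2 (formerly Ctgf) encode secreted matricellular proteins that bind integrins and heparan sulfate in the matrix. Ankrd1 encodes an ankyrin-repeat protein that sits with titin at the sarcomeric I-band and also enters the nucleus of heart muscle cells, where it acts as a cofactor. All 3 are also induced through serum response factor (SRF) and other load-sensitive routes, so their level is not a measure of YAP alone, and YAP activity was not measured here.

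The promoters of Ccn1 and Ankrd1 show where the TEAD element lies in these 2 genes. The window ran from 250 bases before to 50 bases after the start site given by RefSeq on build GRCm38.p6. No window was available for Ccn2, so its promoter was not searched. Capitals mark GGAATG, the core of the TEAD element, or its reverse complement CATTCC. The Ccn1 window is chr3:145649936-145650235 and the Ankrd1 window chr19:36119795-36120094, both on the minus strand and written 5′ to 3′.
Ccn1: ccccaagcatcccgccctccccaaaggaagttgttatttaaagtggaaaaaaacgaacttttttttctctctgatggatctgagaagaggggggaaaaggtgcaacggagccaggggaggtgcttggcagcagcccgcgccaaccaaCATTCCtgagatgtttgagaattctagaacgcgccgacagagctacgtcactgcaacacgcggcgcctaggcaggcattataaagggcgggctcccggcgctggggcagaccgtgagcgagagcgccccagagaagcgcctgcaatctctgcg
Ankrd1: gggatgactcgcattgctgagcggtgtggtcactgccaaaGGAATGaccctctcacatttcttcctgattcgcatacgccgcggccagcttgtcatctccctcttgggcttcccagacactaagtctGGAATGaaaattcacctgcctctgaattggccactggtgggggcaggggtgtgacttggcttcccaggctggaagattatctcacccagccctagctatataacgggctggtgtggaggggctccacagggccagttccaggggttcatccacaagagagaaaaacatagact

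The Ccn1 window held 1 match, beginning at position -103 from the RefSeq start (145649985), and the Ankrd1 window held 2, beginning at positions -210 and -123 from the RefSeq start (36119844). GENCODE M21 starts Ccn1 4 bases further in, but places the start of Ankrd1 elsewhere. In 5 of its 6 Ankrd1 transcripts the start is 36119910, from which the matches begin at -144 and -57. In the other transcript it is 36120099, and both matches then lie inside its first exon, at 46 and 133 bases from its start. Of 32851 windows of the same length, 14.7% held at least 1 match on either strand and 1.36% held at least 2. Among 19 other YAP/TAZ-TEAD target genes with a window, 8 (42.1%) held the element, against 16.6% of all 27025 genes with one. Neither window held the AP-1 element TGANTCA (in 7.81% of all windows), the cyclic AMP response element TGACGTCA (in 1.79%) or the CArG box bound by SRF (in 1.63%), searched on both strands. A match is a run of letters and not a measured binding site.

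On build GRCm38, Ccn1 (ENSMUSG00000028195.4) lies on chromosome 3, 145646976 to 145649981, minus strand. Ccn2 (ENSMUSG00000019997.11) lies on chromosome 10, 24595442 to 24598683, plus strand, and Ankrd1 (ENSMUSG00000024803.9) on chromosome 19, 36111961 to 36120099, minus strand. All 3 are protein-coding genes, and their counts are listed per gene, by a counting rule that is not stated. No annotated gene overlaps Ccn1 or Ankrd1. Gm15270, on the opposite strand, overlaps Ccn2 and was listed at 0 in all 12 libraries. Ccn1 and Ccn2 are paralogs with 62.8% identical bases over 1033 aligned coding bases and a longest shared run of 18 bases. For each gene the annotated transcript with the longest coding part was taken, which need not be the main one in heart. These are of like size, at 2019, 2398 and 2020 bases for Ccn1, Ccn2 and Ankrd1. The 3′ UTR of Ccn1 (690 bases) held 5 copies of ATTTA, the core of the AU-rich elements that mark short-lived mRNAs, a number reached by 3.66% of 2570 genes with a 3′ UTR of similar length. The 742 bases of the Ankrd1 3′ UTR held 4 copies, reached by 10.4% of 2613 genes of similar length. The 1067 bases of the Ccn2 3′ UTR held 2, reached by 52.7% of 2881 such genes.

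Library totals ran from 169359 counts in KO Input replicate 3 to 710868 in KO IP replicate 2, and 3 counts in a library stood for 4.22 to 17.7 CPM, the count scaled to a common library size. Rpl3l stood between 222 and 308 CPM in all WT libraries and lower in all KO libraries, as the labels say. It was not absent from KO Input, at 27.0 to 68.5 CPM, and stood at 2.33 to 8.31 CPM in KO IP. Markers of heart muscle matched the labelled tissue, with 10 of 11 detected in the series and Actc1 listed at 0. The lowest count of any of the 3 genes in any library was 16. Levels below are CPM after scaling by the trimmed mean of M values (TMM), given as mean ± SD of 3 libraries.

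In total RNA, Ccn1 was higher in KO hearts. The WT Input libraries held 20, 23 and 21 counts, or 49.9, 56.7 and 70.5 CPM, and the KO Input libraries held 45, 54 and 70 counts, or 171, 208 and 398 CPM. The groups did not overlap, and KO replicate 3, the shallowest library, stood far above the other KO libraries. The means were 59.0 ± 10.5 CPM in WT and 259 ± 122 CPM in KO (n = 3 each), a log2 fold change of 2.11 (SE 0.32), or 4.31-fold. Only 11 of the other tested genes had a larger positive value here, but this difference was among those that chose the gene, so it is a description with no test. Without KO Input replicate 3 the log2 fold change was 1.70. In bulk tissue, more cells of a type and more RNA per cell cannot be told apart.

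On ribosomes, Ccn1 was not higher in KO. The WT IP libraries held 29.6, 73.7 and 52.8 CPM, a mean of 52.0 ± 22.0, and the KO IP libraries 37.3, 26.2 and 36.6 CPM, a mean of 33.4 ± 6.24 (n = 3 each). The groups overlapped through WT replicate 1, and the log2 fold change was -0.65 (SE 0.35). It moved to -0.95 without WT IP replicate 1 and to -0.32 without WT IP replicate 2, so its size rests on single WT libraries. The genotype difference on ribosomes minus that in total RNA was -2.76 on the log2 scale (SE 0.48).

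Ccn2 showed the same arrangement at a smaller size. WT Input libraries held 89.7, 46.9 and 97.4 CPM (36, 19 and 29 counts) and KO Input libraries 175, 250.4 and 176 CPM (46, 65 and 31 counts). The KO libraries all lay above the WT libraries, with means of 201 ± 43.1 and 78 ± 27.2 CPM (n = 3 each). The log2 fold change was 1.39 (SE 0.28), or 2.62-fold, and ranged from 1.11 to 1.55 when each library was left out in turn. In IP, WT libraries held 72.5, 39.4 and 63.4 CPM and KO libraries 42.0, 65.4 and 54.9 CPM. These overlapped throughout, with means of 58.4 ± 17.1 and 54.1 ± 11.7 CPM (n = 3 each) and a log2 fold change of -0.09 (SE 0.28). The sign of that value turned without WT IP replicate 1 (0.099), without KO IP replicate 1 (0.039) and with scaling to library totals alone (0.021). The difference between the fractions was -1.48 on the log2 scale (SE 0.40).

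Ankrd1 differed between genotypes in the other fraction. WT Input libraries held 1134, 1240.4 and 934 CPM and KO Input libraries 1401, 801 and 881 CPM, from 155 to 503 counts each. The groups overlapped, with means of 1103 ± 156 and 1028 ± 326 CPM (n = 3 each) and a log2 fold change of -0.10 (SE 0.21). It was -0.41 without KO Input replicate 1 and 0.045 without KO Input replicate 2. On ribosomes, WT libraries held 2747, 1619 and 2405 CPM, from 945 to 1856 counts, and KO libraries 1181, 1094 and 926 CPM, from 506 to 836 counts. The KO IP libraries all lay below the WT IP libraries, with means of 1067 ± 129.6 against 2257 ± 579 CPM (n = 3 each). The log2 fold change was -1.08 (SE 0.20), or 2.12-fold lower, and leaving out each library in turn gave -1.28 to -0.92. The difference between the fractions was -0.98 on the log2 scale (SE 0.29), and -0.68 without KO Input replicate 1.

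**Figure D1:**
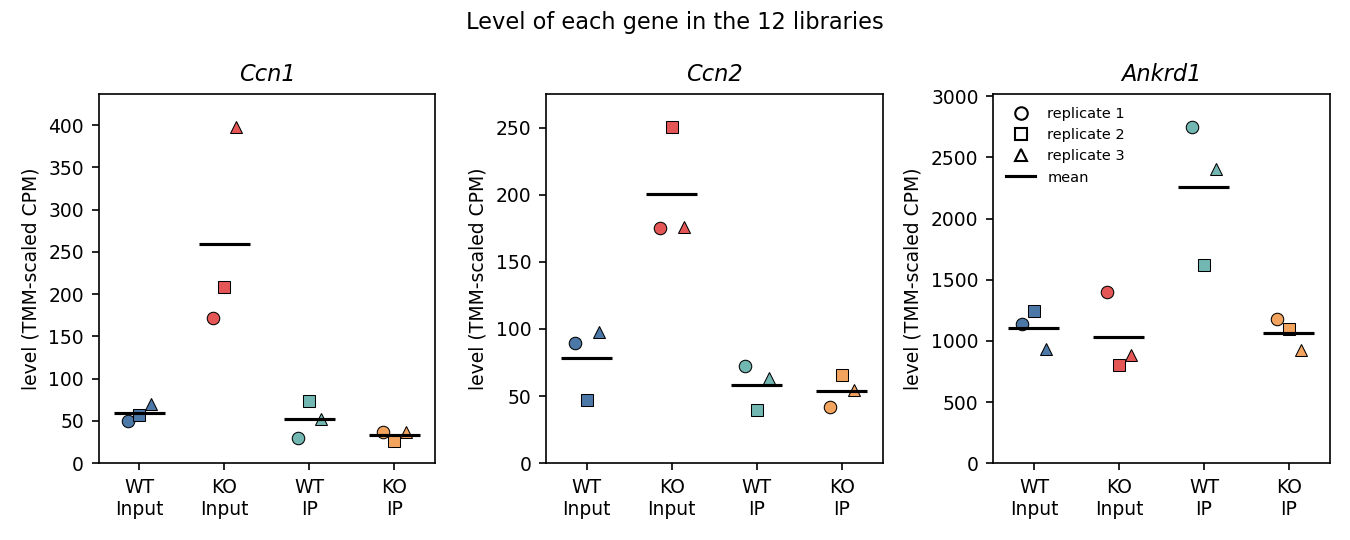
Level of Ccn1, Ccn2 and Ankrd1 in each library (TMM-scaled CPM, linear axes from 0), by genotype and fraction, with symbols for the replicate number and a line at the mean of 3. For Ccn1 and Ccn2 the KO Input libraries stand apart above the other groups (171 to 398 and 175 to 250.4 CPM), and for Ankrd1 the WT IP libraries do (1619 to 2747 CPM).

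In each gene, then, 1 of the 4 groups stood apart and the other groups overlapped their neighbours in level. Ordered by mean, Ccn1 and Ccn2 ran from KO Input through WT Input and WT IP to KO IP, and only the step from KO Input to WT Input was free of overlap. Ankrd1 ran from WT IP through WT Input and KO IP to KO Input, and only the step from WT IP to WT Input was free of overlap. Across all 6596 tested genes, KO libraries lay wholly above WT libraries for 6.17% in Input and wholly below for 5.44% in IP. By edgeR at an adjusted p under 0.05, 0.182% of genes were called for genotype in Input, 0.091% in IP and 0.091% for the difference between the fractions. These contrasts chose the 3 genes, so nothing is read from their standing against those shares. The spread between replicates was ordinary for Ccn2 and Ankrd1, with a biological coefficient of variation of 18.7% and 18.1% against 18.2% over all genes. Ccn1, at 23.2%, was more variable than 75.6% of tested genes, with a CV of 46.9% in KO Input and 42.4% in WT IP against 17.8% in WT Input and 18.7% in KO IP.

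The level of each transcript in IP relative to Input was also averaged over both genotypes. This contrast did not choose the genes, and it was tested. It takes in the KO Input and WT IP levels behind the genotype differences, so its p-values do not bear on those differences. It is a ratio of scaled CPM and not the share of a transcript bound to ribosomes. On this average, Ccn1 and Ccn2 were lower in IP than in Input and Ankrd1 was higher. The log2 fold change was -1.56 for Ccn1 (SE 0.24, edgeR quasi-likelihood test with Benjamini-Hochberg adjustment, adjusted p 2.32e-05). For Ccn2 it was -1.13 (SE 0.20, edgeR adjusted p 0.000141), and for Ankrd1 0.54 (SE 0.14, edgeR adjusted p 0.00654). Many transcripts differed in this contrast, with 29.2% of tested genes called, 13.5% higher and 15.7% lower in IP, so a call here is common. Over 20 alternatives the highest adjusted p was 0.000182 for Ccn1, 0.00133 for Ccn2 and 0.0319 for Ankrd1.

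The averages hide unequal parts, which were described without a test because the genotype difference between fractions chose the genes. In WT hearts the IP to Input log2 fold change was -0.18 for Ccn1 (SE 0.35) and -0.39 for Ccn2 (SE 0.29), with overlapping libraries for both. In KO hearts it was -2.94 for Ccn1 (SE 0.33) and -1.86 for Ccn2 (SE 0.28), and every KO IP library lay below every KO Input library. For Ankrd1 the order was the other way round, with 1.03 in WT (SE 0.20), where libraries did not overlap, and 0.05 in KO (SE 0.21), where they did. Over all tested genes, KO IP libraries lay wholly below KO Input for 15.6%, and WT IP libraries wholly above WT Input for 16.4%. The averaged values of Ccn1 and Ccn2 thus carry their high KO Input level, and that of Ankrd1 its high WT IP level.

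**Figure D2:**
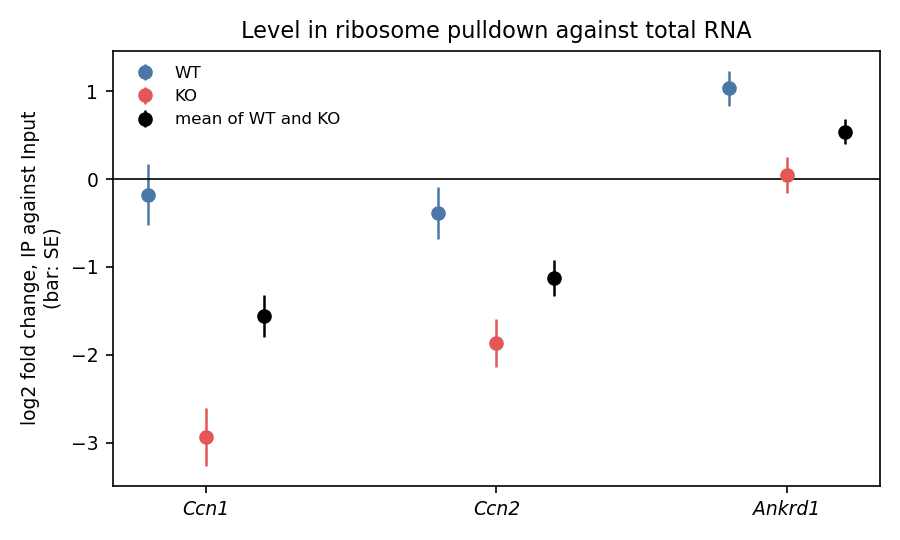
Log2 fold change of IP against Input for each gene in WT, in KO and averaged over both, with bars for the SE from edgeR. Ccn1 and Ccn2 sit near 0 in WT (-0.18 and -0.39) and far below it in KO (-2.94 and -1.86), while Ankrd1 sits above 0 in WT (1.03) and at 0.05 in KO.

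Other YAP/TAZ-TEAD target genes showed no call for genotype. Of a list of 30 targets that includes the 3 genes, 15 others passed the count filter, and none was called by edgeR in Input, in IP or for the difference between fractions. At an unadjusted p under 0.05, 3 were higher in KO Input, none differed in IP and 2 differed between the fractions, and DESeq2 and limma-voom called none in these 3 contrasts. Over all tested genes, 7.11% in Input, 5.2% in IP and 7.02% between fractions lay under that unadjusted p, in either direction. The median log2 fold change of the 15 was 0.06 in Input and 0.14 in IP, against -0.01 and 0.00 over all tested genes. By level, the leading members were Tead1, the TEAD factor itself (-0.06 in Input, SE 0.27, and -0.06 in IP, SE 0.20), and the matrix protein gene Ccdc80 (0.53, SE 0.23, and 0.15, SE 0.19). Amotl1, which encodes an angiomotin that binds YAP, had -0.27 (SE 0.28) and 0.32 (SE 0.18), and the BMP-binding membrane protein gene Crim1 had 0.89 (SE 0.33) and 0.18 (SE 0.27). The receptor kinase gene Axl had -0.18 (SE 0.35) and -0.13 (SE 0.26), and the growth arrest gene Gadd45a 0.00 (SE 0.36) and 0.11 (SE 0.27).

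F3, the gene of tissue factor that starts blood clotting, had the pattern nearest in kind to Ccn1, with a log2 fold change of 1.24 in Input (SE 0.48) and -1.04 in IP (SE 0.51). The difference between its fractions, -2.28 (SE 0.70), did not pass (edgeR adjusted p 0.423), and its level was low, at 20.5 ± 6.0 CPM in WT Input and 48.4 ± 12.6 CPM in KO Input. The matricellular gene Thbs1 had 1.24 in Input (SE 0.70) and 0.33 in IP (SE 0.74). In the contrast of IP with Input averaged over genotypes, 3 of the 15 targets were called higher and 2 lower. Of all tested genes, 13.5% were called higher and 15.7% lower. Amotl1 (1.36, SE 0.16, edgeR adjusted p 6.36e-07), the phosphatase gene Ptpn14 (1.43, SE 0.36, adjusted p 0.00402) and Tead1 (0.88, SE 0.17, adjusted p 0.000242) rose, and F3 (-1.29, SE 0.35, adjusted p 0.00725) and Thbs1 (-1.44, SE 0.51, adjusted p 0.0361) fell. For F3 the WT means were close, at 20.5 CPM in Input and 18.6 CPM in IP, while the KO means were 48.4 and 8.84 CPM. The Thbs1 call ended in 10 of 20 alternatives, and under the stricter count filter 2 targets were called in place of 5.

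**Figure D3:**
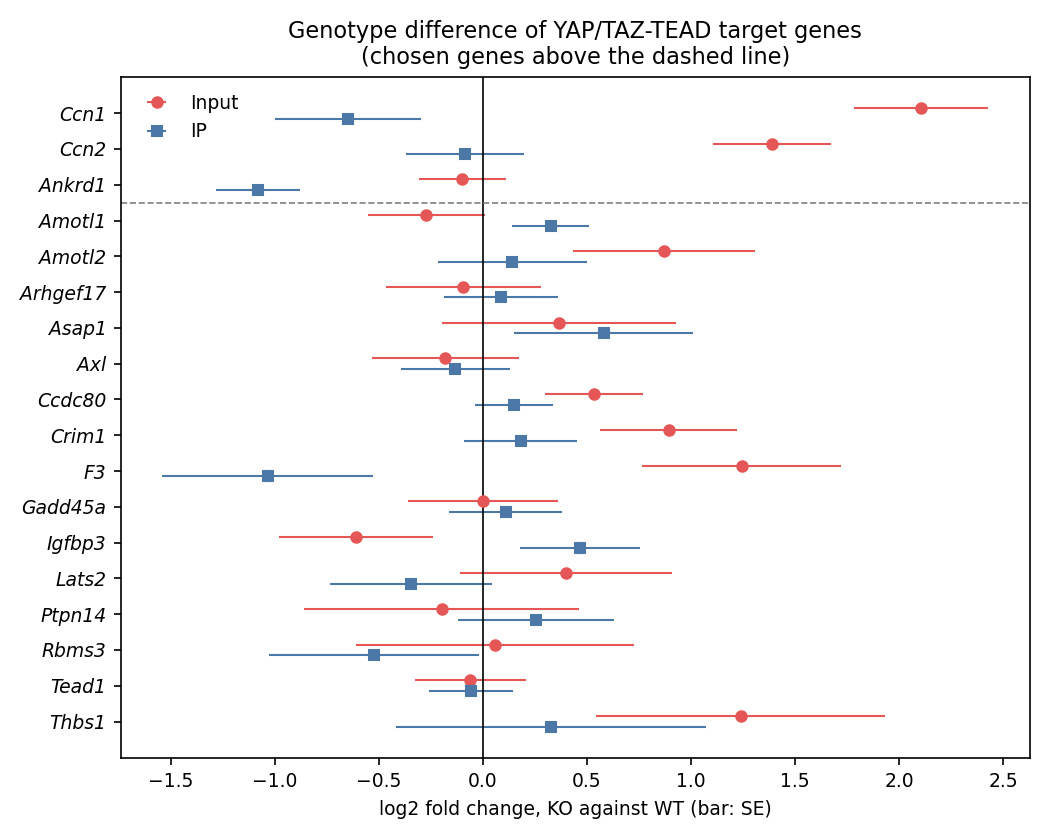
Log2 fold change of KO against WT in Input (circles) and IP (squares) for the 18 tested YAP/TAZ-TEAD targets, with bars for the SE from edgeR. Ccn1 and Ccn2 lie far to the right in Input (2.11 and 1.39) and Ankrd1 to the left in IP (-1.08), while none of the 15 genes below the dashed line passed the test.

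The coactivators and kinases upstream were not called for genotype either. Yap1 stood at 67.1 ± 18.3 CPM in WT Input and 39.5 ± 14.7 in KO Input (log2 fold change -0.68, SE 0.33, edgeR adjusted p 0.693), and at 88.6 ± 15.7 and 111 ± 5.44 CPM in WT and KO IP (0.31, SE 0.23, adjusted p 0.983). Wwtr1 had log2 fold changes of 0.04 (SE 0.37) in Input and -0.25 (SE 0.30) in IP. Of 39 Hippo pathway components, 22 were tested and edgeR called none for genotype in Input, in IP or between fractions (2, 0 and 4 at an unadjusted p under 0.05, beside the same all-gene shares), nor did DESeq2 or limma-voom. For IP against Input averaged over genotypes, the median log2 fold change of the 22 was 0.70, against 0.02 over all tested genes. Of the 22, 12 were called higher in IP and none lower, beside 13.5% and 15.7% of all tested genes. Yap1 was among them (0.92, SE 0.20, adjusted p 0.00101), as was Ywhae, a 14-3-3 protein that holds phosphorylated YAP in the cytoplasm (0.97, SE 0.13, adjusted p 1.96e-06), and the polarity gene Scrib (1.41, SE 0.36, adjusted p 0.00445). Ywhab, another 14-3-3 gene, had -0.34 (SE 0.13, adjusted p 0.0541). With the trend of transcript length removed, 9 Hippo components were called in place of 12.

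Genes that share a family, a partner or a receptor with the 3 genes stayed below the threshold for genotype. Over these lists together with the YAP, Hippo, SRF and TGF-beta lists, 87 genes were tested and edgeR called none in Input, in IP or between fractions. At an unadjusted p under 0.05 there were 10, 2 and 11, against the shares of 7.11%, 5.2% and 7.02% over all tested genes, and DESeq2 and limma-voom called none. Of the other CCN genes, Ccn3, Ccn4 and Ccn5 averaged 9.29, 2.21 and 13.8 CPM over the 12 libraries and did not pass the count filter, and Ccn6 was listed at 0. Ankrd23, the muscle ankyrin-repeat gene nearest to Ankrd1 in the sarcomere, had log2 fold changes of -0.53 in Input (SE 0.20) and -0.63 in IP (SE 0.20, edgeR adjusted p 0.676). Ankrd2, the third of that family, averaged 0.147 CPM. Among 13 tested sarcomere partners, 2 were higher in IP than in Input over both genotypes, Csrp3 (0.40, SE 0.12, adjusted p 0.0140) and the heart transcription factor Nkx2-5 (0.58, SE 0.21, adjusted p 0.0376), and 2 were lower, Ankrd23 (-0.92, SE 0.14, adjusted p 2.59e-05) and Ybx1. Over all tested genes, 13.5% were called higher and 15.7% lower in that contrast. The Nkx2-5 call ended in 9 of 20 alternatives. Ybx1 encodes a cold-shock protein that binds both mRNA and the Ankrd1 protein, and fell by 1.90 on the log2 scale (SE 0.11, adjusted p 1.21e-12). Titin (Ttn) and its cap protein gene Tcap had -0.05 (SE 0.13) and -0.09 (SE 0.14) in that contrast.

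Of 9 tested receptors for CCN proteins, 1 was lower in IP over both genotypes, Igf2r (-0.74, SE 0.11, edgeR adjusted p 2.48e-05), and none higher, though 4 receptors were called with scaling to library totals alone. Beside this and the counts below, 13.5% of all tested genes were called higher and 15.7% lower in IP. Itgb1, the integrin beta chain shared by many CCN receptors, had a log2 fold change for genotype of -0.38 in Input (SE 0.16, adjusted p 0.665) and 0.06 in IP (SE 0.15). The scavenger receptor gene Lrp1 had 0.15 (SE 0.26) and -0.16 (SE 0.20). Among 16 SRF and MRTF target genes, 4 were higher and 5 lower in IP than in Input. Srf itself rose (1.43, SE 0.23, adjusted p 4.31e-05), with the focal adhesion gene Tln1 (0.68, SE 0.20, adjusted p 0.0127), and the smooth muscle genes Myl9 (-2.01, SE 0.29, adjusted p 7.63e-06) and Tagln (-1.12, SE 0.37, adjusted p 0.0226) fell. For genotype, Myl9 had 0.88 in Input (SE 0.37, adjusted p 0.645), and the actin gene Actb, an abundant member, had 0.16 (SE 0.18) in Input and 0.05 (SE 0.17) in IP. Of 17 TGF-beta signalling genes, 5 were higher and 1 lower in IP than in Input. The repressor Ski rose (1.63, SE 0.22, adjusted p 2.73e-06), as did the signal transducer Smad2 (1.58, SE 0.49, adjusted p 0.0166). With the trend of transcript length removed, 3 TGF-beta genes were called in place of 6, as without KO Input replicate 1, and Smad2, Tln1 and Tagln lost their call.

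Immediate early genes, which cells induce within minutes of a stimulus and to which Ccn1 is often counted, were higher in KO Input, as Ccn1 was. Of 25 listed genes, 16 were tested, and edgeR called 5 higher and none lower in KO Input (0.152% of all tested genes were called higher), with all 16 values above 0 and a median of 0.97. They were the zinc-finger factor Egr1 (log2 fold change 3.23, SE 0.53, adjusted p 0.00312), Nr4a1 (2.88, SE 0.44, adjusted p 0.00174), the AP-1 subunit Junb (2.17, SE 0.36, adjusted p 0.00312), Ier2 (1.77, SE 0.36, adjusted p 0.0288) and Zfp36 (1.77, SE 0.37, adjusted p 0.043), whose protein binds AU-rich elements. The Zfp36 call ended in 10 of 20 alternatives, that of Ier2 in 5 and that of Egr1 in 3. In IP edgeR called none, and at an unadjusted p under 0.05 there were 2 higher (5.2% of all tested genes in either direction), with none called by DESeq2 or limma-voom. For the difference between fractions edgeR, DESeq2 and limma-voom called none, but 13 of 16 values were below 0, with a median of -0.73 and 7 lower at an unadjusted p under 0.05 (7.02% of all tested genes in either direction). Egr1 had -2.44 (SE 0.84), Nr4a1 -2.29 (SE 0.80) and Ier2 -2.05 (SE 0.53) there, beside the -2.76 of Ccn1. The summed level of the 25 genes was 715, 740 and 860 CPM in WT Input and 1249, 2057 and 2631 CPM in KO Input, for replicates 1 to 3. KO Input replicate 3 was thus highest in both the sum and Ccn1, and KO Input replicate 1 lowest of the KO libraries in both, while Ccn2 was highest in replicate 2. In IP the sums were 511 to 586 CPM in WT and 646 to 704 CPM in KO, so the sum was higher in KO IP, although 3 of 16 single values were below 0 there, Ier2 at -0.27 (SE 0.39) among them. The part of these genes in the Ccn1 and Ccn2 values was not tested. Without KO Input replicate 3 or without WT Input replicate 1, 2 early genes were called in place of 5, and 3 without WT Input replicate 2 or KO Input replicate 2. Under the stricter count filter 1 was called.

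Early genes were also lower in IP than in Input when averaged over both genotypes. The averages of Ccn1 and Ccn2 were lower too, but in WT alone their values were -0.18 and -0.39, with overlapping libraries. Of 16 early genes, edgeR called 9 lower and none higher, with a median log2 fold change of -0.92, against 15.7% of all tested genes called lower. Fos, an AP-1 subunit, had -4.87 (SE 0.67, adjusted p 4.18e-06), and the nuclear receptor gene Nr4a1 -2.67 (SE 0.38, adjusted p 6.98e-06). Fos averaged only 0.493 CPM in WT IP and 2.42 CPM in KO IP, below the 4.22 CPM or more that 3 counts stood for. The size of its fall is therefore imprecise. Dusp1, a phosphatase that turns off MAP kinases, had -1.54 (SE 0.20, adjusted p 1.42e-06), beside the averaged -1.56 of Ccn1. Klf6, a zinc-finger factor, had -1.28 (SE 0.21, adjusted p 5.34e-05). In WT alone, the summed level of the 25 early genes was 715 to 860 CPM in Input and 511 to 586 CPM in IP. By gene this varied, with WT means in Input and IP of 25.0 and 22.7 CPM for Junb and 30.5 and 22.3 CPM for Ier2. For Dusp1 the WT means were 90.9 and 40.6 CPM, and for Klf6 128 and 51.7 CPM. Under the stricter count filter 3 early genes were called in place of 9.

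**Figure D4:**
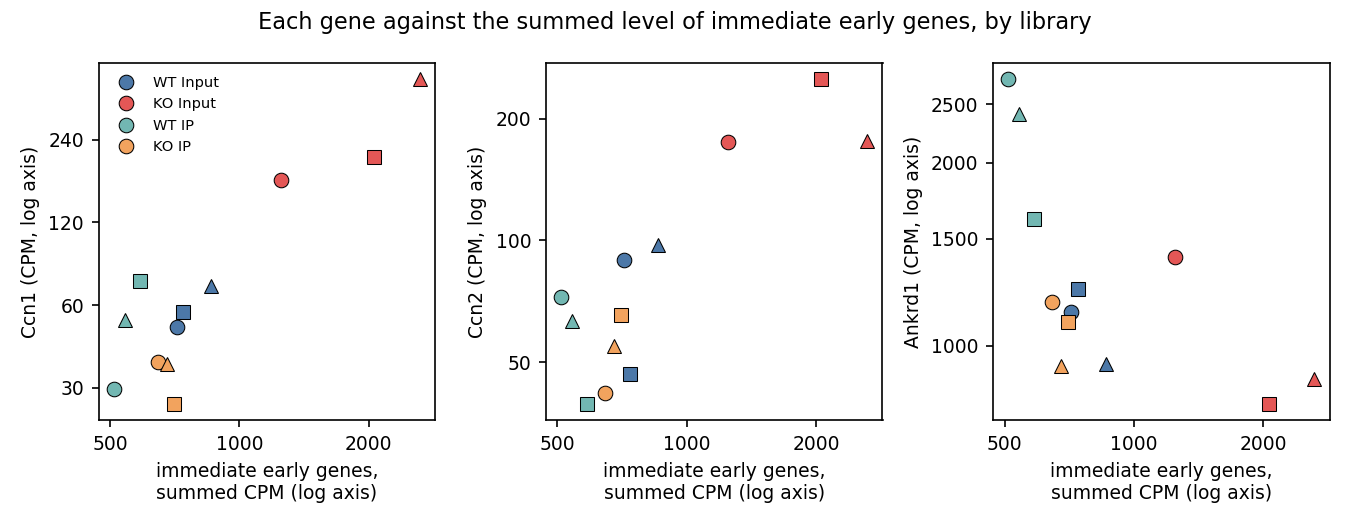
Level of each gene (CPM, log axis) against the summed level of 25 immediate early genes (CPM, log axis) in the 12 libraries, coloured by group, with circles, squares and triangles for replicates 1, 2 and 3. The 3 KO Input libraries lie to the right at 1249 to 2631 CPM, where Ccn1 and Ccn2 are also highest, and Ankrd1 is highest in the WT IP libraries at 511 to 586 CPM.

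Markers of the heart's cell types were summed in each library to set beside these values. Cardiomyocyte markers summed to 67157 to 71418 CPM in KO Input and 67819 to 75936 in WT Input, and to 69841 to 76550 in KO IP and 72475 to 79310 in WT IP. The genotypes overlapped in both fractions. Endothelial markers (13 of 14 detected in the series, Cav1 listed at 0) summed to 3294 to 4154 CPM in KO Input and 2789 to 3574 in WT Input. In IP the endothelial sums were lower, at 2266 to 2345 CPM in KO and 2215 to 2745 in WT. Fabp4, which averaged 1627 CPM over the 12 libraries, made up a large part of these sums. By gene, 6 of 13 tested endothelial markers had a positive and 7 a negative value in IP against Input, with a median of -0.001. Fibroblast markers (11 of 12 detected, Tcf21 listed at 0) summed to 3594 to 4242 CPM in KO Input and 3208 to 3896 in WT Input. In IP the fibroblast sums did not overlap, at 4037 to 4977 CPM in KO and 3425 to 3881 in WT. Smooth muscle and pericyte markers, all 11 detected, summed to 2148 to 2250.2 CPM in KO Input and 2298 to 2316 in WT Input. Des, which is also on the list of sarcomere partners, averaged 1356 CPM over the 12 libraries and made up a large part of that sum. Of the 7 tested markers, 3 had a positive and 4 a negative log2 fold change for genotype in Input.

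The remaining marker sums overlapped between genotypes within each fraction. Macrophage markers, all 10 detected, lay between 550 and 981 CPM in Input and between 696 and 939 in IP. Adipocyte markers, all 8 detected, lay between 1623 and 3026 CPM in Input and between 1066 and 1622 in IP. Fabp4 is counted in this sum as well as in the endothelial one. In IP 3 of 3 tested adipocyte markers were called lower, beside 15.7% of all tested genes. Erythroid markers, all 8 detected, ran from 16171 CPM in KO IP replicate 3 to 202946 in WT IP replicate 2. Epicardial and mesothelial markers, all 8 detected, lay between 34.5 and 118 CPM in Input and between 7.40 and 81.7 in IP. No marker of these 8 cell types was called by edgeR, DESeq2 or limma-voom for genotype in either fraction. At an unadjusted p under 0.05 in IP, 2 fibroblast markers, 1 endothelial and 1 epicardial marker were higher in KO, and 3 erythroid markers and 1 smooth muscle marker were lower (5.2% of all tested genes in either direction). In Input 1 smooth muscle marker was higher and 1 adipocyte marker lower (7.11% of all tested genes). The part of cell composition in the values of the 3 genes was not tested.

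The genes most like each of the 3 were taken by Pearson's r of log2 CPM over the 12 libraries, a description in which all genes share libraries and groups. For Ccn1 they were Ier2, an early-response gene (r = 0.946), Sgk1, a kinase induced by serum and glucocorticoids (0.944), Gtf3c2, a subunit of transcription factor IIIC (0.929), Nr4a1 (0.919) and the proteasome subunit gene Psma6 (0.919). For Ccn2 they were the collagen lysyl hydroxylase gene Plod1 (r = 0.902), the angiopoietin gene Angpt1 (0.893), Fos (0.888), the BMP signal transducer Smad1 (0.885) and Mzt1 (0.884), a small protein of microtubule nucleation. For Ankrd1 they were Ugp2, which makes UDP-glucose (r = 0.919), the prostaglandin D synthase gene Ptgds (0.903), the RNA polymerase III subunit gene Polr3c (0.848), Twsg1, a BMP modulator (0.819), and Rmnd5a, part of a ubiquitin ligase (0.810). Angpt1 averaged 53.0 CPM in WT Input, 104 in KO Input and 34.5 and 34.4 in WT and KO IP. Ptgds averaged 539 CPM in WT Input, 559.9 in KO Input, 1088 in WT IP and 556 in KO IP, so that WT IP was its highest group, as for Ankrd1. Taken instead by the smallest root-mean-square difference of centred log2 CPM, 2 of 5 genes were shared for Ccn1, 2 of 5 for Ccn2 and 4 of 5 for Ankrd1, and the Ccn1 list then added the early genes Zfp36, Junb and Dusp1. Among themselves, Ccn1 and Ccn2 had r = 0.787, and Ankrd1 had r = -0.40 with Ccn1 and -0.39 with Ccn2, over the same 12 libraries.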

How the data were processed

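The deposited files hold raw read counts per gene, 1 file per library, made by the authors. Per the submitters' processing notes, minimap2 2.14, DESeq2 1.34.0 and build GRCm38 were used, with no role or order. For the counting rule the sources used here give nothing. Of 55401 gene IDs, 55141 matched GENCODE M21 without their version. Library totals ran from 169359 to 710868 counts. The test was edgeR's quasi-likelihood test (edgeR 4.0.16, limma 3.58.1, R 4.3.3), with a separate mean for each of the 4 groups, TMM scaling, and the filterByExpr filter at a count of 10 and a total of 15. Benjamini-Hochberg adjusted p values were taken over all 6596 genes and called under 0.05. Each SE was obtained as the absolute log2 fold change over the root of the F statistic. The 3 genes, the gene lists and the contrasts were chosen with earlier results of these data known. The genes carry no test where their genotype difference chose them.

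From each pathway list, genes called for genotype were named, with the 3 most abundant (6 for the YAP list) and up to 2 called per direction for IP against Input. Yap1, Wwtr1, the CCN and ankyrin-repeat relatives were named for their identity. A called gene of the TGF-beta list is not reported here. For log2 levels a prior count of 2 was used. Counts were also simulated with the same spread for every gene, whereas Ccn1 was more variable than 75.6% of tested genes. On these, for IP against Input averaged over genotypes (6229 genes run), 71 of 100 genes with a log2 fold of 1 were recovered. With a log2 fold of 2, 94 of 100 were recovered. For KO against WT in Input (6226 genes run), 31 and 80 of 100 were recovered at these 2 sizes, which limits what the absence of a genotype call can show. The alternatives were DESeq2 size factors, library totals alone, dropping the filter, a filter of 30 counts in at least 3 libraries, tests by DESeq2 1.42.0 and by limma-voom, the replicate number as a block, removal of the transcript length trend (loess span 0.5), and each library left out in turn. Replicate numbers were not taken as pairs.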

Additional observations from a re-analysis of the deposited data

How the results depend on the processing

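The contrast of IP with Input averaged over genotypes kept its direction and call for Ccn1, Ccn2 and Ankrd1 in all 20 alternatives, with log2 fold changes of -1.72 to -1.35, -1.27 to -1.02 and 0.46 to 0.69 when each library was left out in turn. The genotype values of the 3 genes moved by less than the spread between replicates in every alternative, and 2 changed sign near 0. The Ccn2 value in IP turned to 0.021 with library totals, 0.099 without WT IP replicate 1 and 0.039 without KO IP replicate 1 (leaving out each library gave -0.31 to 0.099). The Ankrd1 value in Input turned to 0.045 without KO Input replicate 2 (range -0.41 to 0.045). Without 1 library in turn, the count of genes called ran from 4 (without WT Input replicate 1) to 17 for genotype in Input, where 12 were called with all libraries. It ran from 2 (without WT IP replicate 1) to 8 in IP and from 1 (without WT Input replicate 1) to 8 between fractions, where 6 were called in each with all libraries. Without a count filter these counts were 77, 55 and 37. The stricter filter gave 5 in Input, DESeq2 11 in IP and limma-voom 1 between fractions, and the cause was not tested. With library totals the median log2 fold change over tested genes became 0.13 in IP against Input and 0.12 in IP for genotype. The replicate block changed no call of the 3 genes (Ccn1 -1.57, Ccn2 -1.13 and Ankrd1 0.55 in IP against Input) and gave 1824, 15, 8 and 4 calls in place of 1924, 12, 6 and 6. Same-numbered libraries had correlations of -0.115 to 0.0423, and a library correlated best with its own number in 3 of 36 comparisons. Ccn1 and Ccn2 rest on 16 to 70 counts per library, which limits the precision of their values.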
